A study of Mus musculus with 14 samples.

Results

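Cells sorted as CD29-high (CD29, 2 libraries) were compared with the AP cells of wound-bed dermis (4 libraries, 2 of AP_CD9Low and 2 of AP_CD9High, the AP groups weighted equally), which used 6 of the 14 libraries of the series. Of 52636 genes in the count table, 18394 had enough counts to be tested. The animals were C57/BL6 males, 7 weeks old, and these groups were sorted by FACS from dermis taken 5 days after wounding, with no transgene or treatment named for these libraries. Per the file headers, CD29 is the CD29-high population, DN the CD29-low one, and AP was split into CD9-positive and CD9-negative cells, called AP_CD9High and AP_CD9Low here as in the titles. The labels spell out neither AP nor DN and do not give the sort gates. They mark the CD29, AP and DN libraries, 8 in all, as taken over from an earlier series. The CD29, AP_CD9Low and AP_CD9High libraries carry the same label numbers, 2 and 4, so the 4 AP libraries may come from fewer than 4 samples. The labels do not state that replicates are different animals, and the spread behind each p-value may therefore be technical.

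CD29 is integrin beta 1, the shared chain of most receptors for collagen, laminin and fibronectin, and CD9 is a tetraspanin that associates with such integrins. In a healing skin wound, some mesenchymal cells become myofibroblasts, contractile cells that carry smooth muscle actin in stress fibres, pull the wound edges together and lay down matrix. Other dermal and fascial fibroblasts, often recognised by Dpp4, Pi16, Cd34 and Ly6a, are known as a progenitor-like pool and as makers of complement, acute-phase proteins and chemokines. Pericytes and vascular smooth muscle share the contractile genes of myofibroblasts but are marked by others, such as Rgs5 and Cspg4.

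Among the genes that passed the test, contractile genes were higher in CD29 cells than in AP cells, and most genes of progenitor-like fibroblasts, complement and chemokines were lower. Of the genes tested, 383 were called at an adjusted p under 0.05 (2.08%), 197 higher in CD29 (1.07%) and 186 lower (1.01%). The change was over 4-fold in 106 of the higher and 93 of the lower genes. All adjusted p-values come from the quasi-likelihood test of edgeR with Benjamini-Hochberg adjustment over all genes tested, and levels are CPM, counts scaled to a common library size after TMM. The main fit held all 14 libraries, so the spread behind each SE also includes that within groups outside this comparison. Among these were adipocyte libraries with 79.1% and 84.8% of counts from the mitochondrial genome. A gene could therefore miss the test through spread in other populations. The number of calls depended on the libraries, since it fell to 106 without CD29 replicate 2, 146 without CD29 replicate 1, 214 without AP_CD9High replicate 2 and 254 without AP_CD9High replicate 1. Over all genes tested, the log2 fold change had a median of 0.1. With library size alone as the scaling it was 0.4, and the calls became 384 higher and 136 lower, 73.8% higher against 51.4%. A difference in a sorted population is a difference in the mean over its cells, so fewer cells of a type and less RNA per cell cannot be told apart.

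**Figure D1:**
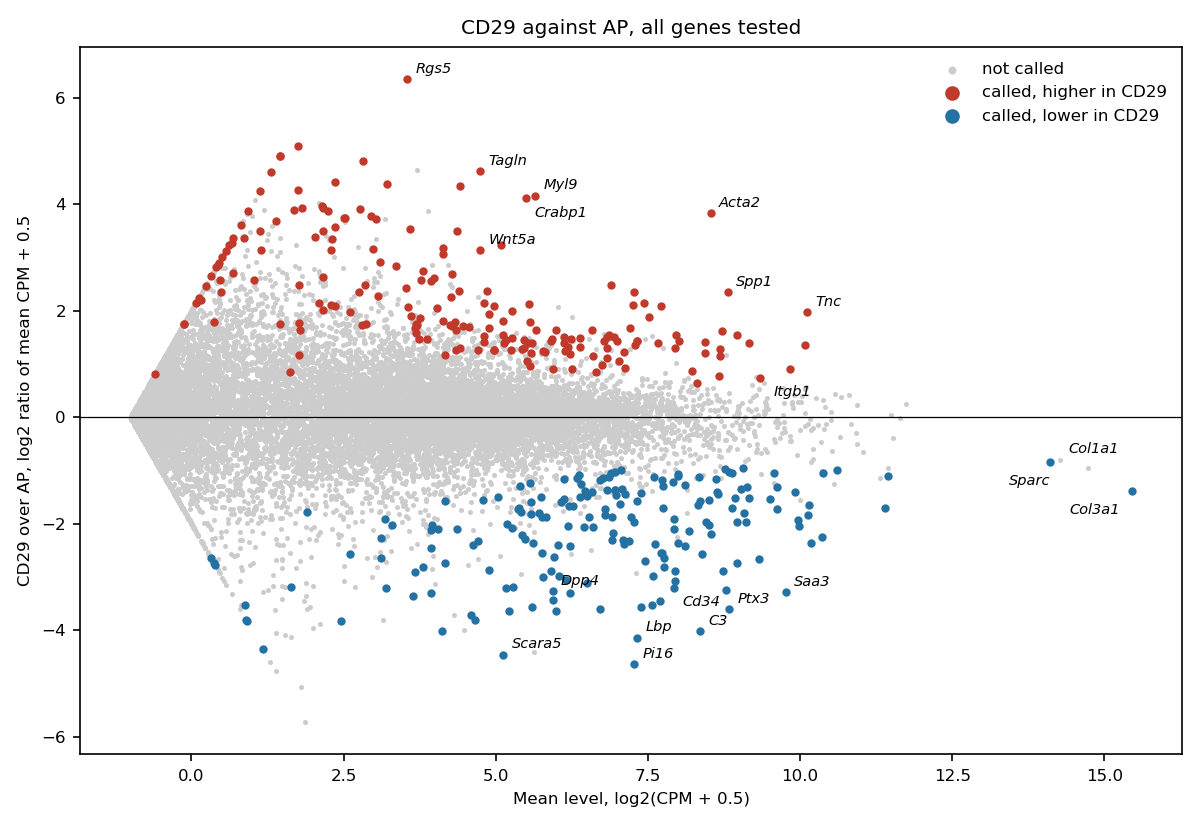
Each point is a gene tested, with its mean level over CD29 and AP on the horizontal axis, as log2(CPM + 0.5), and the log2 ratio of the mean CPM + 0.5 of CD29 over AP on the vertical axis. Red points are the 197 genes called higher in CD29 and blue points the 186 called lower, while Itgb1 and Col1a1 were among the genes not called.

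Library totals were 22218364 and 15414365 counts in CD29 and 20311636 to 21019634 in AP, and genes of the mitochondrial genome took 0.192% to 0.381% of the counts in these 6 libraries. Collagen genes that define dermal mesenchymal cells were among the abundant transcripts of every library, with Col1a1 at 17060 and 12910 CPM in CD29 and 24000 to 29150 CPM in AP (adjusted p = 0.237). CD29 replicate 2 stood apart from replicate 1 in keratinocyte transcripts, with Krt5 at 3.36 and 61.3 CPM in replicates 1 and 2. Calls of the genes chosen by the naming rule were followed without each library, and other genes were not.

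The gene for CD29 itself did not separate the groups, and the gene for CD9 did so against one AP group. Itgb1 (chromosome 8, 128685654 to 128733200, plus strand, GRCm38) was at 647 and 878 CPM in CD29, 656 and 589.6 CPM in AP_CD9Low and 666 and 584 CPM in AP_CD9High. The groups overlapped, and the difference did not pass the test (log2 fold change 0.29, SE 0.2, adjusted p = 0.712). Cd9 was at 199 and 183 CPM in CD29, 48.1 and 45.5 CPM in AP_CD9Low and 134 and 174 CPM in AP_CD9High. The CD29 libraries were above all AP libraries (log2 fold change 1.17, SE 0.27, adjusted p = 0.0411), but the call was lost without any 1 of the 6 libraries and under DESeq2 size factors, and the log2 fold change was 2.03, SE 0.34, adjusted p = 0.00567 against AP_CD9Low alone and 0.31, SE 0.33, adjusted p = 1 against AP_CD9High alone. The order within AP was that of the sort, while the test between AP_CD9High and AP_CD9Low missed the threshold (1.72, SE 0.34, adjusted p = 0.326). Platelet-derived growth factor receptors, used to sort fibroblasts, were at 117 and 110.2 CPM in CD29 and 229 to 305 CPM in AP for Pdgfra, which did not pass the test (log2 fold change -1.26, SE 0.84, adjusted p = 0.704) but passed it when the fit held only these 6 libraries or only the 8 taken over from the earlier series. Pdgfrb was at 179 and 237 CPM in CD29 and 57.2 to 96.9 CPM in AP (log2 fold change 1.53, SE 0.34, adjusted p = 0.0327), a call that was lost without any 1 of the 6 libraries. Thy1 (CD90) was at 40.4 and 33.8 CPM in CD29 and 7.34 to 25.5 CPM in AP with no call (log2 fold change 1.26, SE 0.39, adjusted p = 0.159).

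Nearly equal numbers of contractile genes were higher in CD29 or not called, and none was lower. Of 30 contractile and cytoskeletal genes tested, 14 were called higher and 0 lower, with a median log2 fold change of 1.12 against 0.1 over all genes. At an unadjusted p under 0.05 the counts were 23 higher and 0 lower, and DESeq2 called 16 higher and 0 lower. Over all 18394 genes tested, 1385 were higher and 661 lower at that unadjusted p, and DESeq2 called 435 and 417. Such counts for the other lists stand against the same background. Leaving out 1 library left 8 to 11 called higher, with 8 without either CD29 replicate or AP_CD9High replicate 1, and 9 without AP_CD9High replicate 2. In 25 of the 30 both CD29 libraries were above all 4 AP libraries, which held for 14.6% of all genes tested. Summed over the list, contractile transcripts were at 8808 and 9663 CPM in CD29, 3940 to 5180 CPM in AP and 5591 and 5929 CPM in DN.

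Acta2 (chromosome 19, 34241090 to 34255590, minus strand), the smooth muscle actin that marks myofibroblasts, was at 1292 and 1499 CPM in CD29, 74 and 69.7 CPM in AP_CD9Low and 109 and 138 CPM in AP_CD9High. CD29 stood far above every AP library, AP_CD9High was above AP_CD9Low, and DN lay between at 472 and 411 CPM. The difference from AP was a log2 fold change of 3.89 (SE 0.29, adjusted p = 1.78e-05). Tagln, which encodes the actin-binding protein transgelin, was at 124 and 140.3 CPM in CD29 and 2.96 to 8.82 CPM in AP (log2 fold change 4.86, SE 0.37, adjusted p = 1.78e-05). Its reads could in part belong to Pcsk7, which overlaps it on the other strand and was at 29.8 CPM in CD29 and 22.1 CPM in AP on average. Myl9, the regulatory light chain of smooth muscle and nonmuscle myosin, was at 189.6 and 232 CPM in CD29, 6.7 and 9.46 CPM in AP_CD9Low and 10.9 and 18.2 CPM in AP_CD9High (log2 fold change 4.28, SE 0.39, adjusted p = 7.89e-05). Tropomyosin 1 (Tpm1), which lies along actin filaments, was at 381 and 479.8 CPM in CD29 and 72.3 to 123 CPM in AP (log2 fold change 2.1, SE 0.2, adjusted p = 8.08e-05). In none of these 4 genes did a CD29 library overlap an AP library, and their calls held in all 19 alternatives.

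Of the other 10 called, named here after their values were seen, Csrp1, Mylk, Tpm2, Cnn2, Flna, Actg2, Cald1, Actn1 and Palld had log2 fold changes between 0.78 (Cald1) and 6.04 (Actg2). Smooth muscle myosin heavy chain (Myh11), a gene of mature smooth muscle, was at 8.76 and 14.6 CPM in CD29 and at 0 in all 4 AP libraries (adjusted p = 0.0317). Its mean in CD29 was 408 times a floor of 3 counts pooled over the AP libraries, a ratio that leaves out the spread of CD29. With each AP group set to its own floor of 3 counts and weighted equally, the log2 ratio was 7.67. The Myh11 call was lost without any 1 of the 6 libraries. Some members were not called. Tpm4 was at 1177 and 1417 CPM in CD29 and 810.2 to 980.3 CPM in AP (log2 fold change 0.54, SE 0.19, adjusted p = 0.228), and the nonmuscle myosin gene Myh10 was at 33.8 and 35.5 CPM and 12.6 to 21.8 CPM (log2 fold change 1.15, SE 0.34, adjusted p = 0.135). Calponin 1 (Cnn1), a smooth muscle gene, was at 17.3 and 16.1 CPM in CD29 and 0 to 0.973 CPM in AP with no call (log2 fold change 5.11, SE 2.1, adjusted p = 0.366).

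Many contractile genes are known targets of serum response factor, which binds the CArG box, a run of A and T letters between a C pair and a G pair. The promoters of Acta2 and Myl9 are shown because both genes moved strongly and their windows of 250 bases before to 50 bases after the start hold such boxes. They are RefSeq sequences of GRCm38.p6, Acta2 at chr19:34255324-34255623 on the minus strand and Myl9 at chr2:156775214-156775513 on the plus strand. Capitals mark CArG boxes, on either strand, with all inner letters A or T or with 1 of them off.
Acta2: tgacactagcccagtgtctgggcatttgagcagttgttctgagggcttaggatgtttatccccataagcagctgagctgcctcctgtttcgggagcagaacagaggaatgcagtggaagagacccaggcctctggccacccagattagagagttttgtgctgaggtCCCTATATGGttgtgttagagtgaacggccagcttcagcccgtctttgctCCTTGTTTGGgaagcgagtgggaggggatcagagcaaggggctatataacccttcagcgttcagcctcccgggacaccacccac
Myl9: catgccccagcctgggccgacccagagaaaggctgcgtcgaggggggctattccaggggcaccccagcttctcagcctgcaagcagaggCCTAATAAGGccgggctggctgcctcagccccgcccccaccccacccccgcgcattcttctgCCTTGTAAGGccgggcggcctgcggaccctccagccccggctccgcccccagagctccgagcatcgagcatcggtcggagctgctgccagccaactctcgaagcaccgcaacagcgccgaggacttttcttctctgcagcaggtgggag
In Acta2 the capitals start 84 and 34 bases before the start, and both boxes have 1 inner letter off. The start is that of the RefSeq window. For Acta2 it lies inside the gene span given above, which begins at 34255590 on the minus strand. Both Acta2 boxes lie inside that span too, so their distances hold for the RefSeq start only. In Myl9 a box without a deviating letter starts 161 bases before the start and one with 1 letter off starts 99 bases before it. Among all 32851 promoters of that length, 1.63% held a CArG box and 9.98% held one when 1 inner letter could be off. Of the 14 contractile genes called higher, 11 had a promoter in the table, of which 2 held a CArG box and 3 held one with up to 1 letter off. Of the 16 not called, 15 had a promoter, with 3 and 4 by the same counts. A match is a description of letters and not a bound site.

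**Figure D2:**
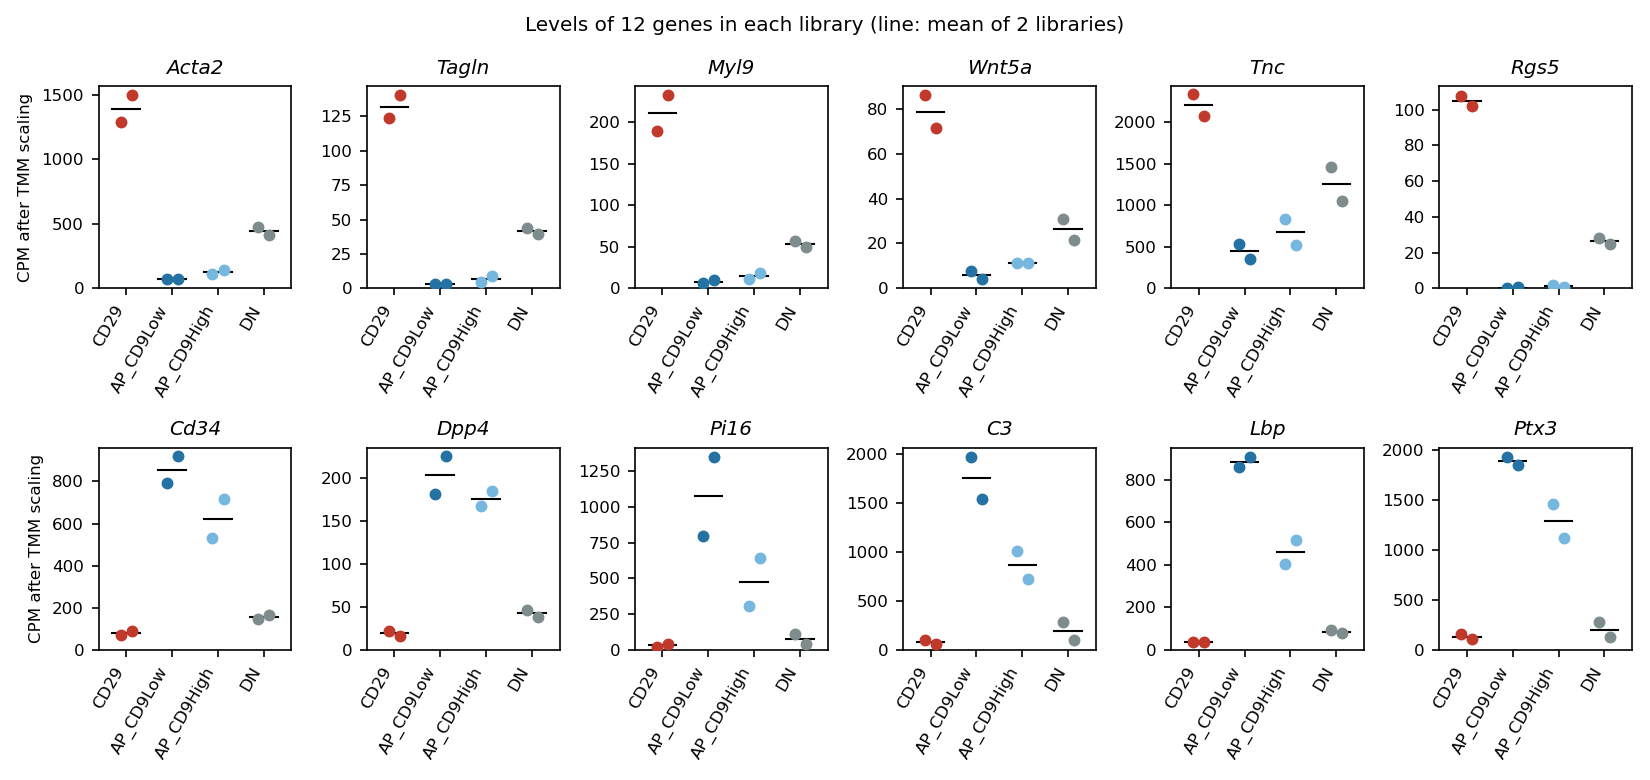
Each panel shows 1 gene, with CPM after TMM scaling on a linear vertical axis and the groups on the horizontal axis. Points are libraries and lines the mean of the 2 libraries of a group. Acta2, Tagln, Myl9, Wnt5a, Tnc and Rgs5 were above AP in both CD29 libraries, Cd34, Dpp4, Pi16, C3, Lbp and Ptx3 were below, and DN is shown for context.

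Most integrin chains, which hold cells to matrix, were not called, and the 2 that were called were higher in CD29. Among 19 integrin chains 2 were called higher and 0 lower (median 0.6, 6 higher and 0 lower at an unadjusted p under 0.05, 4 and 0 by DESeq2). The 2 made up 10.5%, against 1.1% called higher of all genes tested. In 7 of the 19 both CD29 libraries were above all AP libraries and in 0 below, against 14.6% and 9.31% of all genes tested. Itga7, a laminin receptor chain of muscle cells and pericytes, was at 12.7 and 21.9 CPM in CD29 and 0 to 1.57 CPM in AP (log2 fold change 4.31, SE 0.93, adjusted p = 0.0259). Itga1, which pairs with beta 1 to bind collagen, was at 33.5 and 43.6 CPM in CD29 and 1.19 to 10.7 CPM in AP (log2 fold change 2.75, SE 0.6, adjusted p = 0.0282). Neither call held with 6 libraries only, with the label number as a replicate block or against either AP group alone. Both calls were lost without either CD29 replicate. Without replicate 2 the adjusted p was 0.202 for Itga7 and 0.222 for Itga1, and without replicate 1 it was 0.0778 and 0.114. The fibronectin receptor chain Itga5 was at 397 and 330.1 CPM in CD29 and 174 to 287 CPM in AP with no call (adjusted p = 0.553).

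Matricellular genes, whose products sit in the matrix and act on cells rather than bear load, went both ways. Of 17 tested, 4 were called higher and 4 lower (median 0.51). Without CD29 replicate 2 these were 2 higher and 0 lower, and the same counts came without CD29 replicate 1. Tenascin C (Tnc), which is laid down in healing wounds, was at 2337 and 2070 CPM in CD29, 537 and 355 CPM in AP_CD9Low and 829.9 and 524 CPM in AP_CD9High. Each CD29 library was above each AP library (log2 fold change 2.0, SE 0.21, adjusted p = 0.000209). Osteopontin (Spp1), made by wound macrophages as well as mesenchymal cells, was at 1088 and 936 CPM in CD29 and 92 to 301 CPM in AP (log2 fold change 2.44, SE 0.23, adjusted p = 9.28e-05). Its level was 1312 and 1073 CPM in DN, which overlapped that in CD29, while macrophage transcripts were highest in DN. In the other direction, Ccn5, an inhibitor of smooth muscle growth, was at 118 and 106 CPM in CD29 and 442 to 739.9 CPM in AP (log2 fold change -2.37, SE 0.4, adjusted p = 0.00524), and the collagen-binding Sparc was at 14180 and 12210 CPM and 22740 to 24650 CPM (log2 fold change -0.85, SE 0.16, adjusted p = 0.0108). Those last calls were lost without either CD29 replicate (adjusted p = 0.0768 and 0.112 for Ccn5, 0.0579 and 0.198 for Sparc, without replicates 1 and 2). The calls of Tnc and Spp1 held in all 19 alternatives.

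Interstitial matrix genes were lower in CD29 more often than higher. Of 38, 9 were called lower and 5 higher, with a median of -0.58, and summed they reached 86750 and 79080 CPM in CD29 and 156000 to 171000 CPM in AP. The lower calls were 5 without CD29 replicate 2, and the higher ones 3 without either CD29 replicate or AP_CD9High replicate 2. The smallest p-values belonged to glycoproteins and small proteoglycans of collagen and elastic fibres. Efemp1 (fibulin-3) was at 87.4 and 80.9 CPM in CD29 and 655 to 815 CPM in AP (log2 fold change -3.08, SE 0.24, adjusted p = 1.78e-05). Osteoglycin (Ogn), a small leucine-rich proteoglycan, was at 74.3 and 62.8 CPM and 333 to 552 CPM (log2 fold change -2.68, SE 0.26, adjusted p = 9.88e-05). Prelp, which anchors basement membranes to connective tissue, was at 86 and 88.2 CPM and 464 to 559 CPM (log2 fold change -2.56, SE 0.27, adjusted p = 0.00019). All 3, and Col14a1 (log2 fold change -2.89, SE 0.34), a collagen that coats fibrils, were called in all 19 alternatives, and in each every CD29 library was below every AP library, as was so for 9.31% of all genes tested. Tenascin X (Tnxb), which spaces collagen fibrils, was at 14.3 and 20.7 CPM in CD29 and 144 to 301 CPM in AP (log2 fold change -3.69, SE 0.48, adjusted p = 0.000722). Its reads may be shared with a pseudogene that overlaps it on the other strand.

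Of the main fibrillar collagens, Col3a1 was called and Col1a1 and Col1a2 were not. Col3a1 was at 27900 and 27560 CPM in CD29 and 66630 to 78120 CPM in AP (log2 fold change -1.38, SE 0.22, adjusted p = 0.00379), while Col1a1 (log2 fold change -0.79, SE 0.27, adjusted p = 0.237) and Col1a2 (log2 fold change -0.95, SE 0.24, adjusted p = 0.0679) did not pass the test. Decorin (Dcn), which binds collagen fibrils, was at 1736 and 1244 CPM in CD29 and 4077 to 5641 CPM in AP (log2 fold change -1.7, SE 0.26, adjusted p = 0.00314). Fibromodulin (Fmod), another small leucine-rich proteoglycan, went the other way, at 17.9 and 33.9 CPM in CD29, 0 in both AP_CD9Low libraries and 1.53 and 3.53 CPM in AP_CD9High, a ratio of mean levels of 20.5 (adjusted p = 0.000688). Its call was lost against AP_CD9High alone (log2 fold change 3.35, SE 0.94, adjusted p = 0.225). Col12a1, Col11a1, Col6a3 and Col8a1 were also called higher, with log2 fold changes of 1.41, 4.23, 0.94 and 1.41, and were named after their values were seen. Periostin (Postn), a product of wound myofibroblasts, was at 3440 and 4001 CPM in CD29 and 2478 to 4006 CPM in AP and overlapped between the groups (log2 fold change 0.26, SE 0.29, adjusted p = 0.965).

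Basement membrane genes gave 5 lower and 1 higher of 25 (median -0.42). Nidogen 1 (Nid1) was at 333 and 322 CPM in CD29 and 734 to 953 CPM in AP (log2 fold change -1.35, SE 0.2, adjusted p = 0.00201), the laminin chain Lamb2 at 85.5 and 98.5 CPM and 262 to 299 CPM (log2 fold change -1.59, SE 0.32, adjusted p = 0.017) and Lamc1 at 189.9 and 162 CPM and 294 to 462 CPM (log2 fold change -1.07, SE 0.21, adjusted p = 0.018). Without CD29 replicate 2 the 5 lower calls became 0, and without replicate 1 they became 1. Among 28 genes that hydroxylate, fold and cross-link collagen, 1 was called lower and 0 higher (median -0.52, 8 and 0 at an unadjusted p under 0.05, 4 and 0 by DESeq2). That gene was the lysyl hydroxylase Plod2, at 144 and 118 CPM in CD29 and 233 to 348 CPM in AP (log2 fold change -1.12, SE 0.25, adjusted p = 0.033), with adjusted p = 0.175 and 0.383 without CD29 replicates 1 and 2.

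Matrix proteases went both ways. Of 35 proteases and inhibitors, 5 were lower and 2 higher (median -0.06), and without CD29 replicate 2 the lower ones were 2. The higher ones were the gelatinase Mmp9 (log2 fold change 2.44, SE 0.55, adjusted p = 0.0325), a call lost without any 1 of the 6 libraries, and Adamts9 (log2 fold change 2.31, SE 0.46, adjusted p = 0.0167), and the lower ones included an inhibitor, Timp1 (log2 fold change -1.05, SE 0.24, adjusted p = 0.0345). Adamts9 and Timp1 are named after their values were seen. Stromelysin 1 (Mmp3) was at 142 and 171 CPM in CD29 and 837 to 1609 CPM in AP (log2 fold change -2.86, SE 0.31, adjusted p = 0.00024). Adamts5, an aggrecanase, was at 25.7 and 23.3 CPM and 109 to 189 CPM (log2 fold change -2.62, SE 0.26, adjusted p = 0.000113), and Adamts15, of the same enzyme family but from the largest falls and not this list, was at 5.81 and 14.2 CPM and 106 to 153 CPM (log2 fold change -3.7, SE 0.44, adjusted p = 0.000378). These 3 calls held in all 19 alternatives. Adamts1 (log2 fold change -2.03, SE 0.31, adjusted p = 0.003) lost its call without CD29 replicate 2 (adjusted p = 0.0897), and gelatinase A (Mmp2), at 676 and 509.7 CPM and 1370 to 1702 CPM (log2 fold change -1.41, SE 0.27, adjusted p = 0.0141), lost it without either CD29 replicate (0.0701 and 0.225).

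Genes of the TGF-beta and BMP pathways, which drive and restrain myofibroblast formation, went both ways. Inhba, the activin A subunit of the TGF-beta family, was at 435 and 258 CPM in CD29, 65.5 and 47.3 CPM in AP_CD9Low and 95.2 and 64 CPM in AP_CD9High. All CD29 values were above all AP values (log2 fold change 2.37, SE 0.24, adjusted p = 0.000128). Gremlin 1 (Grem1), a secreted BMP antagonist, was at 8.58 and 9.18 CPM in CD29, 0 in both AP_CD9Low libraries and 0.917 and 0 CPM in AP_CD9High (adjusted p = 0.00658). Its call was lost with 6 libraries only, with the label number as a replicate block, with AP libraries of 1 label number summed and against AP_CD9High alone (adjusted p = 0.329). Another BMP antagonist, Chrdl1, was lower, at 22 and 23.8 CPM in CD29 and 136 to 289 CPM in AP (log2 fold change -2.99, SE 0.34, adjusted p = 0.000334). The type II TGF-beta receptor gene Tgfbr2 was at 218 and 269.8 CPM and 607 to 762 CPM (log2 fold change -1.44, SE 0.22, adjusted p = 0.00321), with adjusted p = 0.0774 without CD29 replicate 1. In all, 5 of 37 genes of the TGF-beta and BMP list were called higher and 5 lower (median 0.18). Without CD29 replicate 1 these were 2 and 1, and without replicate 2 they were 2 and 2.

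Among 38 WNT genes 1 was called higher and 2 lower (median 0.26). Wnt5a (chromosome 14, 28504750 to 28527448, plus strand), a ligand of the noncanonical pathway, was at 86.1 and 71.3 CPM in CD29, 7.49 and 4.02 CPM in AP_CD9Low, 11.1 and 11.4 CPM in AP_CD9High and 31 and 21.5 CPM in DN. CD29 was the highest of the 4 groups, with no overlap with AP (log2 fold change 3.29, SE 0.4, adjusted p = 0.000446). The secreted WNT antagonist Sfrp4 was at 24.6 and 34.4 CPM in CD29 and 289.6 to 469 CPM in AP (log2 fold change -3.61, SE 0.39, adjusted p = 0.000209). Its relative Sfrp2 was at 744 and 441 CPM and 1818 to 2483 CPM (log2 fold change -1.83, SE 0.34, adjusted p = 0.00931), and lost its call without CD29 replicate 2 (adjusted p = 0.188). Of 16 Notch genes, 1 was called (median 2.13), the target gene Heyl, at 13.6 and 20.2 CPM in CD29, 0 in both AP_CD9Low libraries and 1.76 and 0.844 CPM in AP_CD9High, a ratio of mean levels of 26 (adjusted p = 0.000827). Notch3, the receptor of mural cells, was at 14.3 and 25.8 CPM in CD29 and 0 to 2.47 CPM in AP with no call (adjusted p = 0.242). By DESeq2, 3 Notch genes were higher and 0 lower.

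Growth factor genes gave 3 higher and 5 lower of 39 (median -0.08), and the lower calls became 0 without CD29 replicate 2 and 1 without replicate 1. The 3 higher ones were Pdgfrb, Vegfc and Pdgfa, the last 2 named after their values were seen. Vegfc averaged 36.6 CPM in CD29 and 5.78 CPM in AP (log2 fold change 3.38, SE 0.72, adjusted p = 0.0246). Pdgfa averaged 32.9 and 5.11 CPM (log2 fold change 2.77, SE 0.6, adjusted p = 0.0261). The lymphatic growth factor Vegfd was lower, at 28.4 and 15.2 CPM in CD29 and 95.8 to 177 CPM in AP (log2 fold change -2.55, SE 0.37, adjusted p = 0.00201). So were Igf1, at 55.7 and 60.5 CPM and 128 to 174 CPM (log2 fold change -1.41, SE 0.22, adjusted p = 0.00314), and the receptor gene Egfr, at 50.1 and 56.9 CPM and 121 to 222 CPM (log2 fold change -1.48, SE 0.27, adjusted p = 0.00993). The retinoic acid-binding protein Crabp1, a marker of dermal papilla and upper dermal fibroblasts, was at 155 and 221 CPM in CD29, 2.66 and 7.12 CPM in AP_CD9Low and 8.52 and 23.3 CPM in AP_CD9High. Both CD29 libraries were above the AP libraries (log2 fold change 4.41, SE 0.48, adjusted p = 0.000209), and the call held in all 19 alternatives. Of the 16 genes of its list, markers of hair-associated dermal cells, 3 were called higher and 0 lower (median 0.92, 8 and 0 at an unadjusted p under 0.05, 3 and 0 by DESeq2). The other called members, Cdh11 and Prdm1, lost their calls without CD29 replicate 2 (adjusted p = 0.222 and 0.138), and Prdm1 also without each of the other libraries.

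Among fibroblast and progenitor genes that passed the test, more were lower in CD29 than higher. Of 32, 10 were called lower, 4 higher and 18 neither, with a median of -1.01. These were 31.2% lower and 12.5% higher, against 1% and 1.1% of all genes tested. The genes described here and in the next paragraph were all at lower levels in CD29, and the 4 called higher are not among them. Leaving out 1 library gave 6 to 11 lower, with 6 without CD29 replicate 1, and 0 to 2 higher. Cd34 (chromosome 1, 194938819 to 194961279, plus strand), a sialomucin of dermal progenitors, was at 69.8 and 90.5 CPM in CD29, 792 and 919 CPM in AP_CD9Low and 531 and 717 CPM in AP_CD9High. CD29 was below all AP libraries, and DN lay between at 144 and 165 CPM (log2 fold change -3.19, SE 0.34, adjusted p = 0.000209). Dpp4, the peptidase CD26, was at 21.9 and 16.5 CPM in CD29 and 167 to 225 CPM in AP (log2 fold change -3.3, SE 0.42, adjusted p = 0.000662). Pi16, a peptidase inhibitor of adventitial fibroblasts, had the largest fall under the naming rule, at 21.7 and 39.5 CPM in CD29, 799 and 1351 CPM in AP_CD9Low and 306 and 640.3 CPM in AP_CD9High (log2 fold change -4.54, SE 0.62, adjusted p = 0.00154). Ly6a, which encodes Sca-1, was at 252 and 257 CPM in CD29 and 1145 to 1953 CPM in AP (log2 fold change -2.65, SE 0.47, adjusted p = 0.00884). It has close relatives in the Ly6 family, and its call was lost without CD29 replicate 1 (adjusted p = 0.114) or 2 (0.124). The calls of Cd34, Dpp4 and Pi16 held in all 19 alternatives. As the labels do not give the sort gates, whether any of these markers was gated on, which would shape its difference, is not known.

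Dermatopontin (Dpt), a matrix protein of broadly shared fibroblasts, was at 138 and 136 CPM in CD29 and 519 to 748 CPM in AP (log2 fold change -2.14, SE 0.21, adjusted p = 0.000104). Ackr3, a receptor that scavenges the chemokine CXCL12, was at 84 and 78.6 CPM and 499 to 691 CPM (log2 fold change -2.81, SE 0.29, adjusted p = 0.000147). Gfpt2, an enzyme of the hexosamine pathway, was at 224 and 124 CPM and 630.2 to 986 CPM (log2 fold change -2.17, SE 0.26, adjusted p = 0.000369). Every CD29 library was below every AP library for these genes, and the calls held in all 19 alternatives. Scara5, a scavenger receptor for ferritin, was at 3.54 and 10.3 CPM in CD29, 238 and 203 CPM in AP_CD9Low and 106 and 105 CPM in AP_CD9High (log2 fold change -4.46, SE 0.64, adjusted p = 0.00159). Clec3b, another gene of adventitial fibroblasts, was at 9.59 and 11 CPM in CD29 and 138 to 331 CPM in AP, groups that did not overlap, but the test was not passed (log2 fold change -4.44, SE 1.21, adjusted p = 0.135).

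Complement genes were lower more often than higher. Of 19, 9 were called lower and 2 higher (median -1.03, or -0.87 with groups at 0 set to a floor of 3 counts). The first median was the fitted value of Cd46, which had 0 counts in CD29, 1 in AP and an SE of 1765.6. Leaving out 1 library left 6 to 9 lower, with 6 without CD29 replicate 2. The central component C3 was at 99.8 and 61.6 CPM in CD29, 1975 and 1545 CPM in AP_CD9Low and 1016 and 728 CPM in AP_CD9High. All CD29 values were below all AP values (log2 fold change -3.94, SE 0.42, adjusted p = 0.000194). C4b, of the classical pathway and near-identical to a neighbouring C4 copy, was at 49.1 and 46.4 CPM in CD29 and 345 to 852 CPM in AP (log2 fold change -3.52, SE 0.33, adjusted p = 9.12e-05). The C1 inhibitor gene Serping1 was at 610.4 and 407 CPM and 1999 to 3219 CPM (log2 fold change -2.34, SE 0.27, adjusted p = 0.000334). Factor B (Cfb), of the alternative pathway, was at 144 and 241 CPM and 964 to 1540 CPM (log2 fold change -2.72, SE 0.33, adjusted p = 0.000446), and the annotation places the gene Gm20547 over it on the same strand. These 4 calls held in all 19 alternatives. C7, a late component, was at 1.65 and 0.244 CPM in CD29 and 13.1 to 31.7 CPM in AP (log2 fold change -4.34, SE 0.82, adjusted p = 0.012), with adjusted p = 0.128 without CD29 replicate 2. The 2 higher genes were C1qa (log2 fold change 1.54, SE 0.34, adjusted p = 0.0291) and C1qb (log2 fold change 1.54, SE 0.33, adjusted p = 0.0248), which macrophages are known to make and which the macrophage list also holds.

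Chemokines, cytokines and acute-phase genes were lower where they were called. Of 35, 9 were called lower and 0 higher (median -1.02, 14 lower and 6 higher at an unadjusted p under 0.05, 13 lower and 4 higher by DESeq2). Leaving out 1 library left 6 to 7, with 6 without AP_CD9Low replicate 2, AP_CD9High replicate 2 or CD29 replicate 2. Saa3, an acute-phase apolipoprotein, was at 395 and 161 CPM in CD29, 3899 and 3431 CPM in AP_CD9Low and 1842 and 1671 CPM in AP_CD9High. The order was CD29, then AP_CD9High, then AP_CD9Low, with no overlap (log2 fold change -3.19, SE 0.37, adjusted p = 0.000358). The eosinophil attractant Ccl11 was at 20.1 and 28.6 CPM in CD29 and 104 to 352 CPM in AP (log2 fold change -3.0, SE 0.37, adjusted p = 0.000495). The monocyte attractant Ccl2 was at 524 and 337 CPM and 1373 to 1495 CPM (log2 fold change -1.73, SE 0.22, adjusted p = 0.000677), and interleukin 6 (Il6) at 99.8 and 72.6 CPM and 408 to 603 CPM (log2 fold change -2.54, SE 0.33, adjusted p = 0.000826). All 4 were called in all 19 alternatives. Il1b and Tnf, cytokines of macrophages, were at 656 and 658 and 97.7 and 104 CPM in CD29 and 223 to 356 and 21 to 50.6 CPM in AP, with no call (adjusted p = 0.0629 and 0.0578).

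Lbp (chromosome 2, 158306493 to 158332852, plus strand), which hands bacterial lipopolysaccharide to CD14, was at 36.6 and 38.8 CPM in CD29, 862 and 909 CPM in AP_CD9Low and 402 and 515 CPM in AP_CD9High. The CD29 replicates were close to each other and far below AP (log2 fold change -4.08, SE 0.29, adjusted p = 1.78e-05). Pentraxin 3 (Ptx3), a soluble pattern recognition protein, was at 154 and 108 CPM in CD29 and 1124 to 1937 CPM in AP (log2 fold change -3.58, SE 0.32, adjusted p = 6.51e-05). Both held in all 19 alternatives. Adrenomedullin (Adm), a vasodilator peptide, was at 14.5 and 12.7 CPM and 112 to 238 CPM (log2 fold change -3.56, SE 0.6, adjusted p = 0.00512), with adjusted p = 0.0803 and 0.112 without CD29 replicates 1 and 2. The angiotensin-converting enzyme gene Ace was at 7.46 and 5.12 CPM and 77.3 to 124 CPM (log2 fold change -3.89, SE 0.56, adjusted p = 0.00165), with adjusted p = 0.061 without CD29 replicate 2. Itih5, Akr1c18 and Ggt5 completed the 15 largest falls, with log2 fold changes of -3.75, -4.17 and -3.49, and each lost its call without CD29 replicate 1.

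**Figure D3:**
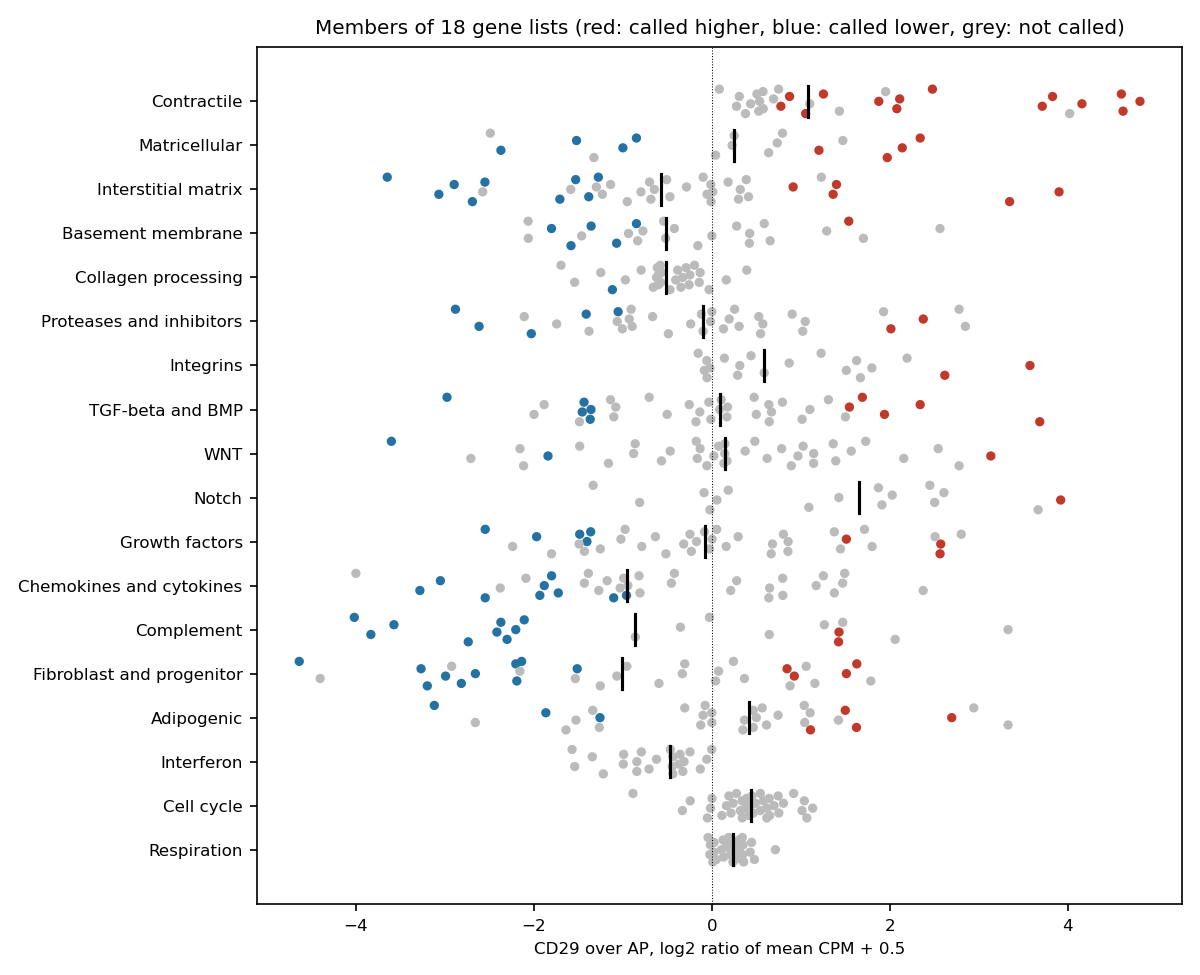
Each point is a tested member of 1 of 18 gene lists, placed by the log2 ratio of the mean CPM + 0.5 of CD29 over AP, with the median of these ratios as a black line and rows spread vertically to separate points. The contractile row holds 14 red points and 0 blue, the chemokine row 9 blue and 0 red, and the complement row 9 blue and 2 red.

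Markers of several other cell types were called higher in CD29. Of 20 pericyte and smooth muscle markers, 6 were called higher and 1 lower (median 4.94, or 4.43 with the floor), and without any 1 of the 6 libraries 4 were higher. Rgs5, a G-protein regulator of pericytes, was at 108 and 102 CPM in CD29, 0 and 0.574 CPM in AP_CD9Low, 1.95 and 0.652 CPM in AP_CD9High and 28.3 and 25.1 CPM in DN. It was near 0 in every AP library (log2 fold change 7.41, SE 0.64, adjusted p = 6.45e-05), and the call held in all 19 alternatives. Mcam (CD146) was at 30.3 and 53.8 CPM in CD29 and 0.267 to 2.8 CPM in AP (log2 fold change 4.77, SE 0.61, adjusted p = 0.000826), also called in all 19. Cspg4, which encodes NG2, was at 16.3 and 24.7 CPM in CD29, 0 in both AP_CD9Low libraries and 2.79 and 1.5 CPM in AP_CD9High, a ratio of mean levels of 19.1 (adjusted p = 0.000334). The lower gene was Steap4, a metalloreductase, at 96.2 and 77.6 CPM and 319 to 754 CPM (log2 fold change -2.61, SE 0.33, adjusted p = 0.00057). The list's sum, which includes Steap4, was lower in CD29, at 610.5 and 637 CPM in CD29 and 847 to 1110 CPM in AP. Without Steap4 it was 514 and 560 CPM in CD29 and 343 to 528 CPM in AP, and the groups overlapped. Of the 20 markers, 13 were higher and 2 lower at an unadjusted p under 0.05 (edgeR), and 6 and 2 by DESeq2. In 14 of them both CD29 libraries were above all AP libraries and in 3 below, against 14.6% and 9.31% of all genes tested. Acta2, Tagln, Myl9 and Myh11 are genes of such cells as well as of myofibroblasts, and the part of pericytes and smooth muscle in the contractile result was not tested.

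Macrophage transcripts were higher in CD29 than in AP and highest in DN. Of 26 markers, 14 were called higher and 0 lower (median 1.44, 22 and 0 at an unadjusted p under 0.05, 18 and 0 by DESeq2). The counts were 0 without CD29 replicate 2, 2 without CD29 replicate 1 or AP_CD9High replicate 2, and 6 to 7 without each of the other 3. Against AP_CD9High alone 0 were called, and against AP_CD9Low alone 15. Summed, the list was at 6021 and 6050 CPM in CD29, 1700 to 3230 CPM in AP and 13770 and 12560 CPM in DN. Tyrobp, an adaptor of immune receptors, was at 82.3 and 87.1 CPM in CD29, 22.9 and 25.6 CPM in AP_CD9Low, 44.4 and 51.4 CPM in AP_CD9High and 239.6 and 197 CPM in DN (log2 fold change 1.31, SE 0.22, adjusted p = 0.00505). Cd68, a lysosomal protein of macrophages, was at 191 and 191 CPM in CD29 and 42.4 to 86.6 CPM in AP (log2 fold change 1.59, SE 0.28, adjusted p = 0.00797). Both calls were lost without either CD29 replicate, with adjusted p = 0.0577 and 0.0907 for Tyrobp and 0.0768 and 0.0896 for Cd68 without replicates 1 and 2. Ptprc (CD45), found on blood cells, was at 38.3 and 58 CPM in CD29, 11.9 to 25 CPM in AP and 98.5 and 76.2 CPM in DN and was 0 in none. Spp1, C1qa, C1qb, Cd36 and Plin2 were also called higher in CD29 than in AP, and C1qa and C1qb are themselves on the macrophage list. Unlike the macrophage sum, Spp1 overlapped between CD29 and DN. The part of macrophages in the results for these genes was not tested.

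Endothelial markers gave 2 higher and 0 lower of 22 (median 2.46, 8 and 0 at an unadjusted p under 0.05, 3 and 0 by DESeq2), with a sum of 243 and 266 CPM in CD29 and 93.6 to 150 CPM in AP. The defining genes Pecam1 and Cdh5 were at 6.52 and 18.3 and 3.69 and 3.7 CPM in CD29 and 0.920 to 4.38 and 0 to 1.61 CPM in AP. The called genes were Robo4 and Esam, and both calls were lost without any 1 of the 6 libraries, with adjusted p = 0.076 and 0.225 without CD29 replicate 2. Among 15 mast cell markers 4 were higher and 0 lower (7 and 0 unadjusted, 5 and 0 by DESeq2), with Cpa3 at 6.34 and 19.1 CPM in CD29, 0 in AP_CD9Low and 0.611 and 2.45 CPM in AP_CD9High, Kit at 0 and 1.22 CPM in CD29, and a list sum of 70.5 and 118 CPM in CD29, 23.1 to 43.1 CPM in AP and 429.5 and 470 CPM in DN. Of the 4, Tpsb2 has a near-identical neighbour. The calls of Cpa3 and Cma1 were lost without any 1 of the 6 libraries, and those of Tpsb2 and Mcpt4 were not. Without the DN libraries the calls of Tpsb2, Cpa3 and Cma1 were lost, and that of Mcpt4 with the label number as a replicate block. All 4 were lost against AP_CD9High alone. Keratinocyte markers gave 4 higher and 0 lower of 25 (15 and 0 unadjusted, 12 and 0 by DESeq2), with a sum of 58.2 and 261 CPM in CD29 and 16.6 to 49.3 CPM in AP. Without CD29 replicate 2 none of them was called. Of 15 skeletal muscle markers 0 were called (edgeR, 9 higher and 0 lower unadjusted, 3 and 0 by DESeq2), with sums of 72.8 and 99.4 CPM in CD29 and 2.6 to 13.5 CPM in AP and Pax7 at 0 in all 6 libraries. Sox10, which marks glia and melanocytes, was also at 0 in all 6. Neutrophil markers gave 1 higher of 11 (Mmp9) and erythroid and platelet markers 1 of 10 (Pf4, adjusted p = 0.0701 and 0.0523 without CD29 replicates 1 and 2), with 0 lower, while lymphoid and dendritic cell markers gave 0 of 16 by edgeR (2 higher and 0 lower unadjusted, 0 and 0 by DESeq2) and glial and melanocyte markers 0 of 10 (3 and 0, 0 and 0). The part of these cells in the results above was not tested.

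**Figure D4:**
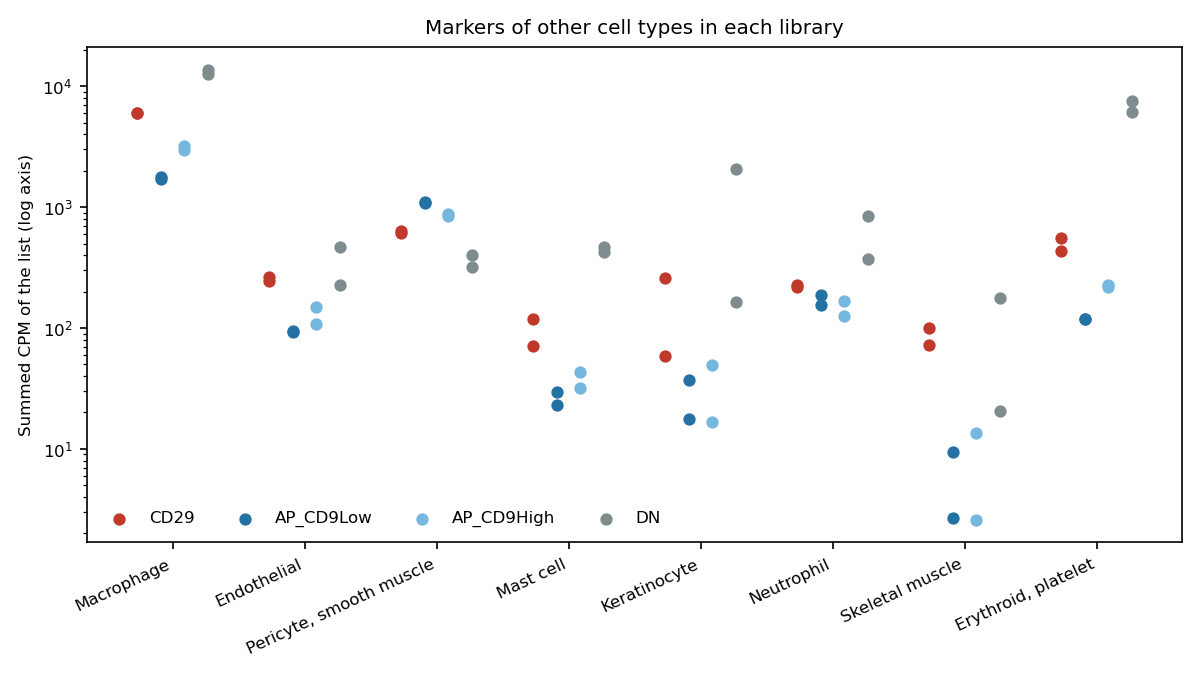
Summed CPM of marker lists for 8 other cell types, on a log vertical axis, with 1 point per library and colours for CD29, AP_CD9Low, AP_CD9High and DN. Macrophage, mast cell and erythroid sums were higher in CD29 than in AP and highest in DN, while the pericyte and smooth muscle sum was lower in CD29 than in AP with Steap4 and overlapped without it, at 514 and 560 against 343 to 528 CPM.

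Set against each AP group on its own, CD29 differed from AP_CD9Low in 325 genes (1.77%, 155 higher and 170 lower) and from AP_CD9High in 121 (0.658%, 29 higher and 92 lower). The 2 contrasts share the CD29 libraries. The log2 fold changes of Acta2 were 4.28, SE 0.39, adjusted p = 9.6e-05 against AP_CD9Low and 3.5, SE 0.37, adjusted p = 0.000797 against AP_CD9High. For Lbp they were -4.55, SE 0.31, adjusted p = 1.72e-05 and -3.6, SE 0.3, adjusted p = 9.84e-05, and for C3 they were -4.45, SE 0.45, adjusted p = 0.000195 and -3.43, SE 0.43, adjusted p = 0.0016. Of the 197 genes called higher against AP as a whole, 156 had the larger fold change against AP_CD9Low and 21 against AP_CD9High. The rest of the 197 had equal fold changes. Of the 186 lower ones the counts were 165 and 21. This split was not counted over all genes tested, and fold changes of genes at 0 in AP_CD9Low depend on the prior count. All 383 had the same sign against both, but they were called on the mean of these 2 contrasts, which favours a shared sign. Between the AP groups themselves 2 of the 18394 genes were called (0.0109%), Mme and Rac1, both higher in AP_CD9High and both also called higher in CD29 than in AP. They are named after their values were seen.

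The 15 largest rises under the naming rule were for the most part genes of low level that were at 0 in AP_CD9Low. All but Rgs5 were at 0 in both AP_CD9Low libraries, where a fitted fold change depends on the prior count, so levels are given instead. Each of these genes lost its call against AP_CD9High alone. Bcam, a laminin receptor also known as Lutheran, was at 10.7 and 18.1 CPM in CD29 and 0 in all 4 AP libraries (adjusted p = 0.00494). Its mean in CD29 was 504 times a floor of 3 counts pooled over AP. The log2 ratio was 7.98 with a floor for each AP group. The predicted gene Gm2115 was at 17.1 and 11.9 CPM and 0 (adjusted p = 0.00582), with 508 and 7.99 for the same measures. Stra6, a retinol transporter, was at 11.7 and 26.7 CPM in CD29 and 0.306 and 0 CPM in AP_CD9High (adjusted p = 0.00743), Tinagl1, a basement membrane glycoprotein, at 21 and 25.6 and 1.34 and 1.11 CPM (0.00743), and Moxd1, which resembles dopamine beta-hydroxylase, at 10.5 and 18.1 and 0.382 and 0.690 CPM (0.00491). Without CD29 replicate 2, adjusted p was 0.051 for Bcam, 0.0947 for Stra6 and 0.0682 for Tinagl1, and without replicate 1 it was 0.0567 for Gm2115. Tinagl1 was also lost without either AP_CD9High replicate. Podnl1 and Adra2a lost their calls without either CD29 replicate. Cma1, a mast cell chymase, was at 9.56 and 11.7 CPM in CD29 and 2.02 and 3.14 CPM in AP_CD9High (adjusted p = 0.0319), and lost its call without any 1 of the 6 libraries.

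Few or no genes of several other programmes passed the test. The unadjusted counts below stand against 1385 higher and 661 lower over all 18394 genes tested. Of 38 cell cycle genes 0 were called by edgeR (2 higher and 0 lower at an unadjusted p under 0.05, 1 and 0 by DESeq2), with a median of 0.47 and Mki67, the proliferation marker, at 38.8 and 62.4 CPM in CD29 and 24.6 to 29.6 CPM in AP (log2 fold change 0.93, SE 0.25, adjusted p = 0.0859). Of 30 respiratory chain genes 0 were called (0 and 0 unadjusted, 0 and 0 by DESeq2, median 0.24). Among 23 interferon-stimulated genes 0 were called (0 higher and 6 lower unadjusted, 0 and 3 by DESeq2, median -0.45). Glycolysis and hypoxia genes gave 1 lower of 27, which was Adm, and 0 higher (0 and 5 unadjusted, 0 and 3 by DESeq2, median -0.23). Both CD29 libraries were above all 4 AP libraries in 16 of 38 cell cycle and 11 of 30 respiratory chain genes, against 14.6% of all genes tested. They were below in 10 of 23 interferon-stimulated and 12 of 27 glycolysis and hypoxia genes, against 9.31%. In the opposite direction there was 1 cell cycle gene and 1 glycolysis and hypoxia gene.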

How the data were processed

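The authors deposited a table of raw read counts per gene for 14 libraries of 7 groups. RNA was amplified with the SMARTer Ultra Low kit after FACS, per the labels' protocols. CASAVA 1.8.2, HISAT2 2.1, StringTie 1.3.3b, DESeq2 and mm10 are named, with no role or order, in the submitters' processing notes. Whether counting used strand is not given in the sources used here. Symbols were matched to Ensembl IDs without version for 52489 of 52636 genes, and the remaining genes held at most 0.052% of a library's counts.

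Counts were fitted with edgeR 4.0.16 in R 4.3.3 (TMM scaling, filterByExpr, robust quasi-likelihood with legacy = TRUE) over all 14 libraries with 1 coefficient per group, which left 7 residual degrees of freedom. CD29 was tested two-sided against the AP groups, each weighted 0.5. The standard error is the log2 fold change over the root of F. legacy = TRUE had been listed as an alternative and became the main setting because it kept false calls under the threshold on simulated data, where legacy = FALSE did not.

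Named genes were Itgb1, Cd9, Cd34, Ly6a, Pdgfra, Pdgfrb, Thy1 and Dpp4, which are the genes of the labels and of markers often used for sorting. To these were added the 15 largest rises and falls among calls of at least 10 CPM, and up to 4 calls of smallest p per list. List members could also be named as not called. Members and lists were chosen with earlier results of these data known. The alternatives included DESeq2 1.42.0, other scalings and filters, and each library left out.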

Additional observations from a re-analysis of the deposited data

How the results depend on the processing

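Over 19 alternatives, none of the 102 called genes that were followed changed direction, and 41 of them kept their call in each. The main counts were 383 called, 197 higher and 186 lower. DESeq2 size factors in edgeR gave 386 (189 and 197), and library size alone gave 520 (384 and 136). Without the filter on low counts there were 882 (560 and 322), with DESeq2 852 (435 and 417), with legacy = FALSE, chosen after seeing the data, 808 (464 and 344), with the 8 reanalysed libraries only 750 (371 and 379) and with 6 libraries only 697 (281 and 416). AP libraries of 1 label number summed gave 515 (225 and 290), a test against a fold of 1.5 gave 197 (94 and 103), and the contrast with AP_CD9High only gave 121 (29 and 92). Without the DN libraries there were 315 (146 and 169). Of the 383 main calls, 337 (160 and 177) were of genes with at least 10 CPM. These settings were also added after seeing the data. Leaving out 1 library gave 106 to 294 called, 45 to 154 higher and 61 to 140 lower. In the fits that leave CD29 with 1 library, that library is assumed to vary like the other groups.

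With the label number as a replicate block over the 6 libraries, 582 genes were called (217 higher and 365 lower). Deviations of same-numbered libraries from their group means correlated at r = 0.12 between CD29 and AP_CD9Low, -0.04 between CD29 and AP_CD9High and 0.11 between the AP groups, across 7832 genes. As not every correlation passed 0.1 and the labels do not say what the number marks, pairing was not established. The library numbered 4 had the higher keratinocyte sum in all 3 groups, at 261 against 58.2 CPM in CD29, 36.9 against 17.7 CPM in AP_CD9Low and 49.3 against 16.6 CPM in AP_CD9High, and also the higher lymphoid and muscle sums. Whether libraries of 1 number share a source was not tested. The cause of these shifts was not tested. With 2 libraries a group, genes of few counts are the least certain, and levels at 0 in AP give no upper bound on a fold.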

Other observations

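Genes of the adipogenic list went both ways. Of 32 tested, 4 were called higher and 3 lower in CD29 (median 0.44), and the higher ones were 2 without CD29 replicate 2. Fabp4, a fatty acid-binding protein of adipocytes, endothelium and macrophages, was at 53.5 and 44.3 CPM in CD29 and 5.21 to 9.21 CPM in AP (log2 fold change 2.78, SE 0.36, adjusted p = 0.000722). Plin2, which coats lipid droplets in many cell types, was at 154 and 178 CPM and 61.3 to 96.9 CPM (log2 fold change 1.14, SE 0.18, adjusted p = 0.00413), and the fatty acid transporter gene Cd36 at 99 and 133 CPM and 25.7 to 54.8 CPM (log2 fold change 1.55, SE 0.27, adjusted p = 0.00669). Apolipoprotein D (Apod), a lipid carrier of fibroblasts, was lower, at 31.4 and 29.3 CPM and 240.5 to 297 CPM (log2 fold change -3.14, SE 0.27, adjusted p = 5.32e-05). The calls of Plin2 and Cd36 were lost without CD29 replicate 2 (adjusted p = 0.107 and 0.14). Macrophage markers were also higher in CD29, and their part in these results was not tested.

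Among 43 mesenchymal transcription factors 2 were called higher and 1 lower (median 0.37). Tbx3, a T-box factor, was at 16.5 and 16.4 CPM in CD29 and 1.84 to 3.36 CPM in AP (log2 fold change 2.69, SE 0.61, adjusted p = 0.033), and Osr2, a zinc-finger factor, at 29.9 and 15.2 CPM and 72.1 to 85.2 CPM (log2 fold change -1.8, SE 0.43, adjusted p = 0.0443). Neither call held without CD29 replicate 1 (0.215 and 0.0987) or 2 (0.218 and 0.47). Of 24 immediate-early genes, which tissue dissociation can induce, 2 were called lower and 0 higher (median -0.42, 9 lower and 1 higher at an unadjusted p under 0.05, 7 and 0 by DESeq2). They were Myc, at 139.9 and 97.2 CPM in CD29 and 334 to 437 CPM in AP (log2 fold change -1.71, SE 0.25, adjusted p = 0.00194), and Nr4a1, at 259 and 263 CPM and 526 to 653 CPM (log2 fold change -1.16, SE 0.23, adjusted p = 0.0185). Without CD29 replicate 2 neither was called (adjusted p = 0.0757 for Myc and 0.199 for Nr4a1), and Nr4a1 was also lost without CD29 replicate 1 (0.197), AP_CD9Low replicate 1 or AP_CD9High replicate 1. The list's sum was 15020 and 12910 CPM in CD29 and 20400 to 22100 CPM in AP, and the part of dissociation in the results was not tested.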
